A study of Mus musculus with 8 samples.

Results

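Chd5, Upp2, Pdp2 and Kctd19 are 4 genes of 37797 in the table. Measured against the median gene, these genes had much lower read counts in 4OHT than in DMSO libraries after an 8 min label. They were named for that difference, with no stated threshold, so their values at 8 min are given here as a description with no test. All 4 were among the 20660 genes with a value of at least 10 in at least 2 libraries. The data are 8 libraries of 4-thiouridine (4sU) labelled RNA, made by 4sUDRB-seq from male mouse embryonic stem cells derived from 129 mice and grown without feeders in serum and LIF. All libraries carry conditional alleles of Ythdc1 (Ythdc1_cKO), which encodes a nuclear reader of the RNA mark N6-methyladenosine, and the labels name neither the recombinase that 4OHT (4-hydroxytamoxifen) acts on nor the deleted exons. Cells were kept for 4 days with 4OHT at 1 μg/ml or with DMSO, its solvent. Every culture then received 100 μM DRB, which stops RNA polymerase II close to promoters, for 3 h. After DRB was washed out, 1 mM 4sU was given for 0 or 8 min. The 4 groups are DMSO at 0 min, 4OHT at 0 min, DMSO at 8 min and 4OHT at 8 min, with 2 libraries each, numbered 1 and 2 in the table. The titles place embryonic stem cell number 1 at 0 min and number 2 at 8 min, whereas columns of either label time carry both numbers, and label time and cell line cannot be told apart. A label of 0 min leaves no time for labelling, so those libraries may hold mainly carried-over RNA. No label gives separate cultures to the libraries of a group, so a p-value reflects only how far these samples vary, possibly for technical reasons.

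The 4 genes have no known common pathway. Chd5 encodes a chromodomain helicase, a catalytic subunit of NuRD-type chromatin remodelling complexes that is best known from neurons and testis. Upp2 encodes uridine phosphorylase 2, which splits uridine into uracil and ribose 1-phosphate and is best known from liver. Pdp2 encodes the catalytic subunit of a mitochondrial phosphatase that reactivates the pyruvate dehydrogenase complex. Kctd19 encodes a protein with BTB domains of the KCTD family, known from male meiosis, where it binds the zinc finger protein ZFP541.

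In GRCm38.p6 (mm10) Chd5 (gene ID 269610) lies on chromosome 4 from 152338646 to 152390194, and Upp2 (gene ID 76654) on chromosome 2 from 58566317 to 58795846. Pdp2 (gene ID 382051) lies on chromosome 8 from 104591472 to 104599026, and Kctd19 (gene ID 279499) on the same chromosome from 105382801 to 105413502. The gene spans were 51.5 kb for Chd5, 230 kb for Upp2, 7.56 kb for Pdp2 and 30.7 kb for Kctd19. They thus ran from shorter than most tested genes to longer than nearly all: 25.7% of the tested genes found in the annotation were shorter than Pdp2 and 95.3% shorter than Upp2.

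Because DRB holds the polymerase near the start site and its removal lets transcription begin there, the 250 bases before the annotated starts are shown. RefSeq sequences (GRCm38.p6) were held for 3 of the 4 genes, all on the plus strand. Upp2 has a distal start and a proximal start far inside the gene span, and the table of counts does not say which of them was used. The distal window also lies inside the span, which begins at 58566317, and no window before that base is shown. Capitals mark matches to 5 motifs, searched on both strands. The motifs are the GC box, the TATA box, the NF-Y box, the E-box and the core of the cyclic AMP response element, spelled out where they are counted.
Chd5, chr4:152338401-152338650: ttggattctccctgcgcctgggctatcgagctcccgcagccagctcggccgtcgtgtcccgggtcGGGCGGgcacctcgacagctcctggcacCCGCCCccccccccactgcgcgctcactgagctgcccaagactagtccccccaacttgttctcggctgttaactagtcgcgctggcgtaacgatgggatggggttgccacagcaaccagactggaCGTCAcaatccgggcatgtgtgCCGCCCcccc
Upp2 distal, chr2:58567084-58567333: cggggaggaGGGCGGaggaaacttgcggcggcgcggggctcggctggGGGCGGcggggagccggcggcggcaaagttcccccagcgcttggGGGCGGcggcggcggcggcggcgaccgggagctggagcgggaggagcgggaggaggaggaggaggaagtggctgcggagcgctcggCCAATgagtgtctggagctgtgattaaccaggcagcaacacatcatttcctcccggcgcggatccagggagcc
Upp2 proximal, chr2:58754934-58755183: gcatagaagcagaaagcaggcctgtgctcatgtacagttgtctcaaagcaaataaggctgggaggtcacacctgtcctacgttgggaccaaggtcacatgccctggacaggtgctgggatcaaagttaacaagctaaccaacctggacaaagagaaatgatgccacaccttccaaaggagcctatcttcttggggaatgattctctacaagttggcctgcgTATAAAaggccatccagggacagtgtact
Pdp2, chr8:104591222-104591471: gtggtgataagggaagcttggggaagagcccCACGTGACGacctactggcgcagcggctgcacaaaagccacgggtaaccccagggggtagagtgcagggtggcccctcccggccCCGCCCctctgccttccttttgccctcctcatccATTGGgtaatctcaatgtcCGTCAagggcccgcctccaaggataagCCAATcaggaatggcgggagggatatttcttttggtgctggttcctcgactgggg
The windows differed in kind. The Chd5 window had 21 CpG dinucleotides and 67.2% G+C, the distal Upp2 window 29 and 73.2%, the Pdp2 window 11 and 60.8%, and the proximal Upp2 window 2 and 49.2%, against medians of 6 and 52.4% over 32851 annotated windows of the same length. GC boxes, searched as GGGCGG, numbered 3 in Chd5, 3 in distal Upp2, 1 in Pdp2 and 0 in proximal Upp2, and 32.7% of all windows held at least 1. The TATA box, searched as TATAAA, occurred once, in proximal Upp2, 29 bases before the start, and in 12.4% of all windows. The NF-Y box, searched as CCAAT, occurred once in distal Upp2 and at 2 places in Pdp2, and in 33.8% of all windows. The E-box, searched as CACGTG, occurred once, in Pdp2, where it overlapped a match to the next motif, and in 6.02% of all windows. The core of the cyclic AMP response element, searched as TGACG, occurred once in Chd5 and at 2 places in Pdp2, and in 17.8% of all windows. No motif searched was held by all 4 windows, and a match is only a description of the letters.

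The libraries held 46.3 M to 61.4 M reads at 0 min and 93.1 M to 134 M reads at 8 min (M, mega), recovered from the deposited values, which are reads divided by 1 number per library (8.10 to 29.5). On the deposited scale the median gene was higher with 4OHT by 1.43 (log2) at 8 min and by 0.28 at 0 min. Differences are therefore also given relative to the median gene, and as read counts after median-ratio scaling, which sets a typical gene level across libraries. In that scaling of all 8 libraries the median log2 fold change was -0.077 at 8 min and -0.0036 at 0 min. The table also holds 60 spike-in entries, which were not used for scaling here. At 8 min they took 0.0271% and 0.0674% of reads with DMSO and 0.0412% and 0.0386% with 4OHT. Whether RNA amounts differed in absolute terms was not tested. All 10 stem cell markers were tested. They summed to 1865 to 1952 RPM (of gene reads) with DMSO and 1867 to 1887 with 4OHT at 0 min, and to 1279 to 1452 with DMSO and 1193 to 1198 with 4OHT at 8 min. In the 4 libraries of 8 min scaled alone, 3 of the 10 fell (Nanog, at -1.01, Dppa5a and Tdgf1) and 1 rose (Sox2), against 16.7% and 18.6% of all genes, and with all 8 libraries scaled limma called 0. Their part in the results was not tested. The 8 fibroblast markers summed to 7.67 to 15.0 RPM. Ythdc1 itself was at deposited counts of 133 and 185 (DMSO) and 129 and 412 (4OHT) at 0 min, and 1409 and 2708 (DMSO) and 2696 and 5168 (4OHT) at 8 min, a log2 fold change at 8 min of 0.93 (limma adjusted p = 0.17), or -0.50 relative to the median gene. In the 4 libraries of 8 min scaled alone it fell by 0.53 ± 0.13 (SE; adjusted p = 0.00259), and with all 8 scaled it was at -0.61 (adjusted p = 0.465). Since the deleted part is not named, reads over the whole gene do not check the labels, and 4OHT and DMSO mean the libraries so labelled.

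Kctd19 had the largest difference of the 4 at 8 min. Its deposited normalised read counts were 64.2 and 103 (DMSO) against 37.5 and 54.4 (4OHT), so both 4OHT libraries lay below both DMSO libraries. The log2 fold change was -0.83, or -2.26 relative to the median gene. After median-ratio scaling the counts were 71.6 and 73.7 (DMSO) against 14.3 and 13.3 (4OHT), means of 72.6 ± 1.50 and 13.8 ± 0.715 (SD, n = 2), a ratio of 0.19.

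Pdp2 was at deposited counts of 94.8 and 158 (DMSO) against 60.2 and 98.2 (4OHT) at 8 min. The groups overlapped, since 4OHT number 2 lay above DMSO number 1. The log2 fold change was -0.66, or -2.10 relative to the median gene. Scaled, Pdp2 was at 106 and 113 (DMSO) against 23.0 and 24.1 (4OHT), means of 110 ± 5.41 and 23.5 ± 0.766 (SD, n = 2), and the groups no longer overlapped.

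Upp2 was the gene of the 4 with the highest count at 8 min, 172 and 239 (DMSO) against 111 and 205 (4OHT) as deposited, where the groups again overlapped. The log2 fold change was -0.43, or -1.86 relative to the median gene. Scaled counts were 192 and 172 (DMSO) against 42.4 and 50.1 (4OHT), means of 182 ± 14.0 and 46.3 ± 5.48 (SD, n = 2), and did not overlap.

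Chd5 was at deposited counts of 75.6 and 137 (DMSO) against 62.8 and 104 (4OHT) at 8 min, with overlapping groups. The log2 fold change was -0.33, or -1.76 relative to the median gene. The scaled counts of 84.3 and 98.6 (DMSO) against 24.0 and 25.4 (4OHT), means of 91.4 ± 10.1 and 24.7 ± 1.01 (SD, n = 2), did not overlap. On the deposited scale 0.484% of all tested genes had both 4OHT libraries below both DMSO libraries at 8 min and 90.3% had both above. After scaling 39.8% had both below and 28.2% both above. As the genes were chosen on this comparison, nothing is read from their places in those shares.

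**Figure D1:**
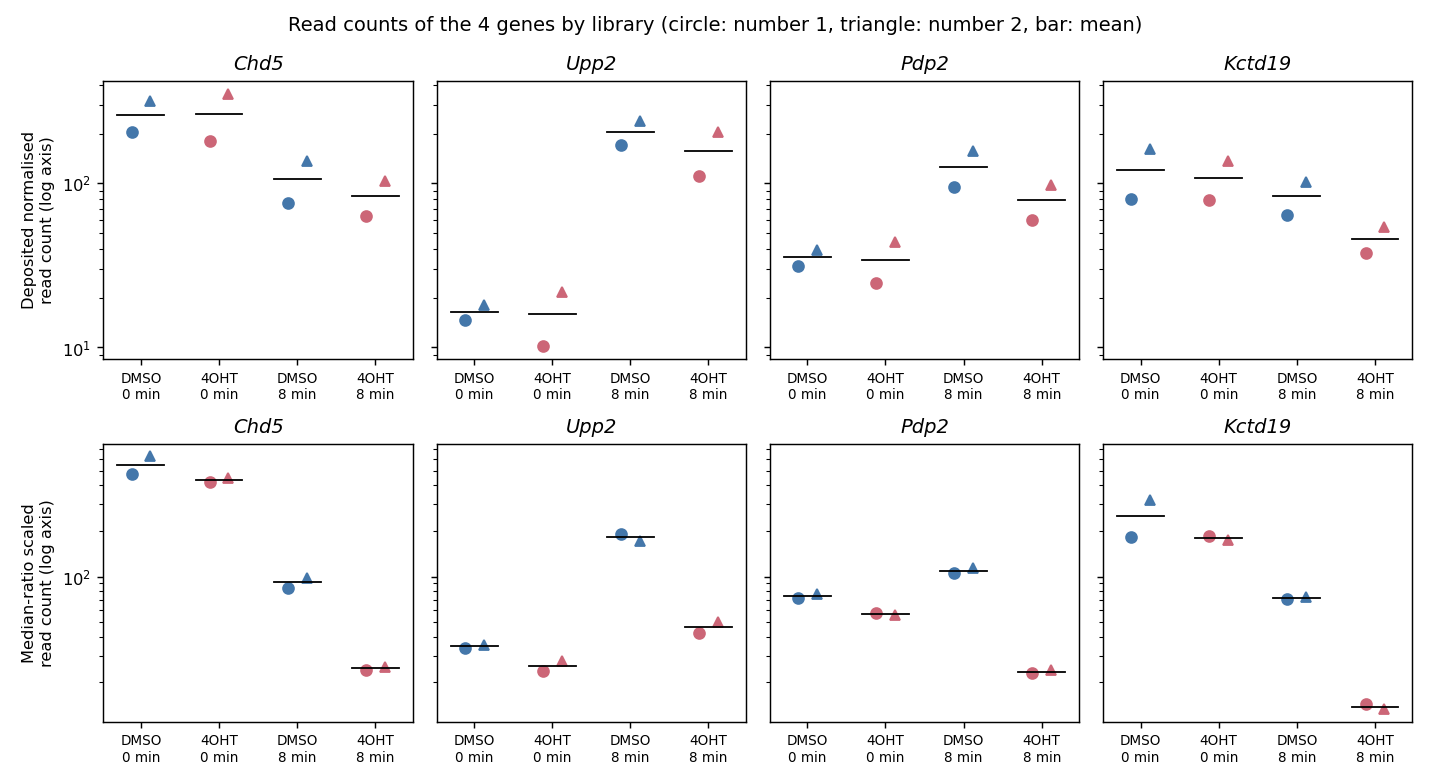
Read counts of Chd5, Upp2, Pdp2 and Kctd19 in each of the 8 libraries, as deposited (upper row) and after median-ratio scaling (lower row), on log axes. Circles are library number 1, triangles number 2, bars the group mean (n = 2); at 8 min the scaled 4OHT counts of every gene lie below its DMSO counts, from 13.3 to 50.1 against 71.6 to 192.

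The 4 differences lay close together among themselves, between -1.76 and -2.26 relative to the median gene, and far out among all genes. Of the 20660 genes tested, 87 had a lower log2 fold change at 8 min than Kctd19, 119 than Pdp2, 186 than Upp2 and 222 than Chd5. Among the 9752 genes with a mean deposited count of at least 50 in DMSO at 8 min, which all 4 genes reached, those numbers were 19, 23, 36 and 46. Most genes lower than these 4 thus had a count under that level. The reads behind their values ran from 424 (Kctd19) to 1656 (Upp2) in the 4OHT libraries of 8 min and from 1534 to 5072 in the DMSO libraries. The 4 genes fall in 3 classes of gene length. The median relative change was -0.10 for 2949 protein-coding genes under 10 kb, where Pdp2 falls, 0.14 for 4194 genes of 30 to 100 kb, where Chd5 and Kctd19 fall, and 0.12 for 2257 genes over 100 kb, where Upp2 falls. The lowest 5% of each class began at -0.93, -0.83 and -0.97, above all 4 genes. Since the 4 genes were chosen for this change, their ranks and their places within the classes are description only. The part of gene length was not tested.

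**Figure D2:**
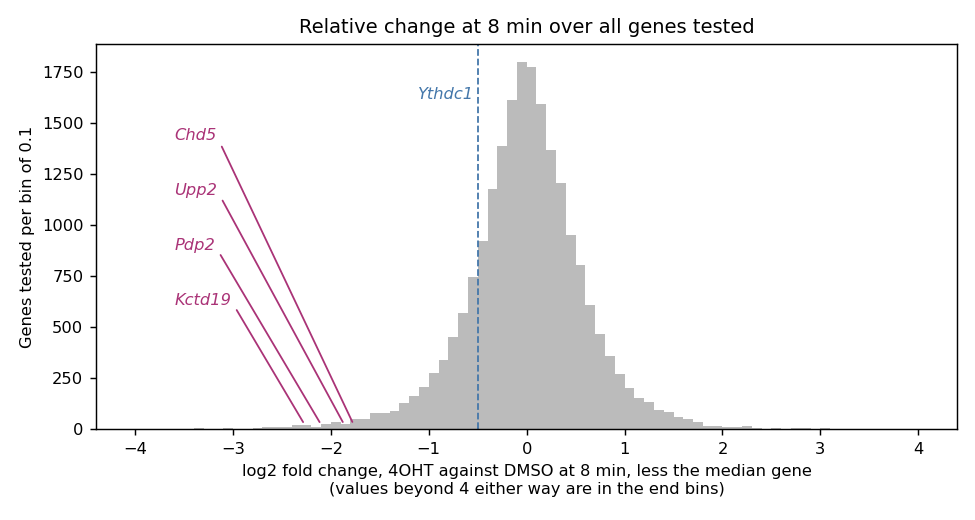
Number of genes tested (20660) per bin of the log2 fold change of 4OHT against DMSO at 8 min, less the median gene. Chd5 (-1.76), Upp2 (-1.86), Pdp2 (-2.10) and Kctd19 (-2.26) lie in the lower tail, and the targeted gene Ythdc1 (-0.50, dashed) lies nearer the middle.

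The 0 min libraries did not serve to choose the genes and give the one treatment comparison that could be tested. As deposited, no gene of the 4 passed the test between 4OHT and DMSO at 0 min, and the 4OHT and DMSO libraries of all 4 overlapped (3.54% of tested genes had both 4OHT libraries below both DMSO libraries, and 15.4% both above). Chd5 was at 206 and 318 (DMSO) against 180 and 352 (4OHT), a log2 fold change of -0.02 ± 0.59 (SE). Kctd19 was at 79.9 and 163 (DMSO) against 79.2 and 137 (4OHT), a change of -0.13 ± 0.59. These were the genes of highest count of the 4 at 0 min. Pdp2 was at 31.5 and 39.2 (DMSO) against 24.7 and 43.9 (4OHT), a change of -0.09 ± 0.59. Upp2 was at 14.7 and 18.2 (DMSO) against 10.1 and 21.8 (4OHT), a change of -0.12 ± 0.59, on as few as 238 reads in a library. The limma adjusted p was 1 for each gene. Over all genes limma called 0 of 20660 higher and 0 lower at 0 min (0% each), with 495 higher and 55 lower at an unadjusted p under 0.05, while edgeR called 0 and 0 and DESeq2 89 and 40. On the deposited scale the sign at 0 min rested on single libraries. Without 4OHT number 1 the changes were 0.46 for Chd5, 0.26 for Kctd19, 0.31 for Pdp2 and 0.39 for Upp2. Without DMSO number 2 they were 0.29, 0.38, 0.06 and 0.02. These changes were not taken relative to the median gene, and the deposited scale differed between libraries. Median-ratio scaling divided the 0 min libraries by 0.435 and 0.511 (DMSO) and by 0.429 and 0.787 (4OHT). Leaving out a library was not repeated on the scaled values.

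Relative to other genes, all 4 lay somewhat low with 4OHT at 0 min, without passing the test. After median-ratio scaling the 0 min counts of Upp2 were 33.9 and 35.5 (DMSO) against 23.7 and 27.7 (4OHT), those of Pdp2 72.6 and 76.6 against 57.7 and 55.7, and those of Chd5 475 and 622 against 421 and 448. In these 3 genes both 4OHT libraries lay below both DMSO libraries, as in 8.85% of all genes tested (9.82% had both above). The scaled counts of Kctd19 were 184 and 318 (DMSO) against 185 and 174 (4OHT), where the groups overlapped. The scaled log2 fold changes were -0.32 ± 0.22 (SE) for Chd5, -0.42 ± 0.25 for Upp2, -0.39 ± 0.23 for Pdp2 and -0.43 ± 0.28 for Kctd19 (limma adjusted p = 1 for each, unadjusted p from 0.12 to 0.172). Between 12.3% and 17.4% of tested genes had a lower scaled change, against 0.227% to 0.687% at 8 min. The difference between the 8 min and 0 min effects, -1.52 for Chd5, -1.53 for Upp2, -1.78 for Pdp2 and -1.88 for Kctd19 on the scaled values, holds the libraries that chose the genes and was not tested.

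The genes parted in how their counts differed between 0 and 8 min of label. Upp2 was higher at 8 min, with a deposited mean of 16.4 ± 2.43 at 0 min and 206 ± 47.7 at 8 min in DMSO and of 16.0 ± 8.21 and 158 ± 66.2 in 4OHT (SD, n = 2). As deposited, Pdp2 was higher at 8 min as well, with 35.4 ± 5.40 and 126 ± 44.6 in DMSO and 34.3 ± 13.5 and 79.2 ± 26.9 in 4OHT. Chd5 ran the other way, with 262 ± 79.2 at 0 min and 106 ± 43.6 at 8 min in DMSO and 266 ± 121 and 83.3 ± 28.9 in 4OHT. Kctd19 was also lower at 8 min, with 121 ± 58.7 and 83.4 ± 27.2 in DMSO and 108 ± 40.6 and 45.9 ± 11.9 in 4OHT. In log2 terms the deposited 8 against 0 min differences in DMSO were 3.55 for Upp2, 1.77 for Pdp2, -0.49 for Kctd19 and -1.32 for Chd5, around a median gene of 1.25. In 4OHT they were 3.25, 1.20, -1.19 and -1.63, around a median gene of 2.49. A share of 92.2% of tested genes lay below Upp2 in DMSO and 2.36% below Chd5. The label-time and treatment comparisons share the 8 min libraries, so these values are set side by side only. The deposited counts of Chd5 at 0 min exceeded those at 8 min in every library of the same treatment. For Kctd19 this held in 4OHT, while in DMSO the deposited groups overlapped (79.9 and 163 against 64.2 and 103). Scaled, the DMSO counts of Kctd19 did not overlap (184 and 318 at 0 min against 71.6 and 73.7 at 8 min). For both genes the part of carried-over RNA in the 8 min counts was not tested.

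Levels of different genes were compared per kb of gene span, on the median-ratio scaled counts. Whether reads were counted over exons or whole genes is not given in the sources used here. After DRB removal transcription begins near the start site, and how much of each span was reached in 8 min is not known. Division by the full span may thus place long genes too low, and the order below is not one of transcription. Upp2, the longest, had the highest undivided count in DMSO at 8 min (192 and 172). In DMSO at 8 min Pdp2 was highest with 14.0 and 15.0 counts per kb, then Kctd19 with 2.33 and 2.4, Chd5 with 1.63 and 1.91 and Upp2 with 0.836 and 0.75, with no overlap between neighbours in the order. In 4OHT at 8 min Pdp2 stayed first with 3.04 and 3.19. Kctd19 with 0.467 and 0.434 and Chd5 with 0.466 and 0.493 could not be told apart, and Upp2 had 0.185 and 0.218. At 0 min in DMSO, Chd5 (9.21 and 12.1), Pdp2 (9.61 and 10.1) and Kctd19 (5.99 and 10.4) overlapped, and Upp2 lay far below with 0.148 and 0.155.

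Relatives and partners of each gene were read from 4 lists. None of the 84 list genes tested was lower at 8 min than Chd5, the least changed of the 4 genes, whether deposited or scaled. Of all tested genes only 1.07% were lower than Chd5 as deposited, 0.687% with 8 libraries scaled and 0.891% with 4 scaled. The 4 genes were chosen for low values, so nothing is read from that count. Each list is given by its count on the deposited scale (8 libraries, limma), where 58.8% of all genes were called higher and 0.131% lower. It is then given by its count in the 4 libraries of 8 min alone, scaled by median ratio, where 18.6% were called higher and 16.7% lower. With all 8 libraries scaled, limma called 0 list genes in either direction (over all genes 0.00968% higher and 0.136% lower). The 7 list genes that fell in the scaled 8 min libraries were all higher with 4OHT as deposited, by 0.18 to 1.07 on the log2 scale and without passing the test, so their direction holds relative to the median gene only. The deposited calls rested on single libraries: the 61 list genes called higher became 0 without DMSO 8 min number 1 or without 4OHT 8 min number 2. Over all genes the 12138 called higher became 301 and 240, and the 27 called lower became 3 and 6, and 11 without 4OHT 8 min number 1 and 6 without DMSO 8 min number 2.

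The chromodomain helicases and NuRD subunits around Chd5 centred on the median gene. Of 21 tested, 14 were higher and 0 lower as deposited, with a median relative change of 0.05, and 5 rose and 3 fell in the scaled 8 min libraries. Chd7, a remodeller of enhancers, rose by 0.82 ± 0.11 (SE; limma adjusted p = 6.3e-06), from scaled counts of 234 and 244 to 415 and 433. Chd9 (0.78), Chd6 (0.66) and Chd2 (0.66), helicases of the same family, rose as well. Chd3, which like Chd5 is a helicase of the NuRD type, had the lowest value of the list. It fell by 1.23 ± 0.25 (SE; limma adjusted p = 0.000591), from 38.5 and 48.4 to 22.2 and 14.3, but was at 0.18 as deposited, while Chd4, another NuRD helicase, was at -0.15 (adjusted p = 0.301). Chd5 was at -1.78 in the same libraries.

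Of 23 genes tested for uridine salvage and pyrimidine metabolism, the surroundings of Upp2, 16 were higher and 0 lower as deposited, with a median relative change of 0.21, and 5 rose and 2 fell when scaled. Upp1, the other uridine phosphorylase, was the lowest of the list. It fell by 1.02 ± 0.12 (SE; limma adjusted p = 8.2e-07), from scaled counts of 428 and 357 to 188 and 196. As deposited it was at 205 and 270 with DMSO against 248.8 and 410 with 4OHT, a log2 fold change of 0.44 (adjusted p = 0.473). Upp2 was at -1.89 in the same libraries. Nt5c3, a nucleotidase of pyrimidine monophosphates, rose by 0.83 ± 0.12 (adjusted p = 1.4e-05). Its relative Nt5c3b (0.48) and Umps, the last enzyme of uridine monophosphate synthesis (0.55), rose too. Uck2, a uridine kinase, was at -0.16 (adjusted p = 0.283).

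For the pyruvate dehydrogenase list around Pdp2, 15 of 20 tested genes were higher and 0 lower as deposited, with a median relative change of 0.02, and 4 rose and 1 fell when scaled. Pdp1, the other catalytic subunit of the phosphatase, was at scaled counts of 67.2 and 75.7 (DMSO) against 60.1 and 69.0 (4OHT), with overlapping groups (-0.15 ± 0.17 SE; adjusted p = 0.54). Pdk1, a kinase that opposes it, was at -0.11 (adjusted p = 0.435). The genes that rose by the smallest p act on branched-chain keto acids, a related dehydrogenase: Bckdhb (0.78), Bckdha (0.58) and Dbt (0.51). Bckdk, the kinase of that complex, fell by 0.62 (adjusted p = 0.00452) and was at 0.83 as deposited.

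Among KCTD genes and partners of Kctd19, 16 of 20 tested genes were higher and 0 lower as deposited, with a median relative change of 0.14, and 2 rose and 1 fell when scaled. Zfp541, which encodes the partner named above, was on this list of 25 genes but not among those tested. Kctd6 rose by 0.69 (adjusted p = 0.000564) and Kctd1 by 0.47 (adjusted p = 0.0269). Kctd16, an auxiliary subunit of GABA-B receptors, fell by 0.61 (adjusted p = 0.00102), from scaled counts of 188 and 176 to 122 and 116. As deposited both 4OHT libraries (162 and 242) lay above both DMSO libraries (90.3 and 133), a log2 fold change of 0.85 (adjusted p = 0.177). Cul3, the ubiquitin ligase scaffold that many KCTD proteins bind, was at -0.31 (adjusted p = 0.0509). At 0 min limma called 0 genes of the 4 lists in either direction (0% over all genes), on the deposited and on the scaled values.

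**Figure D3:**
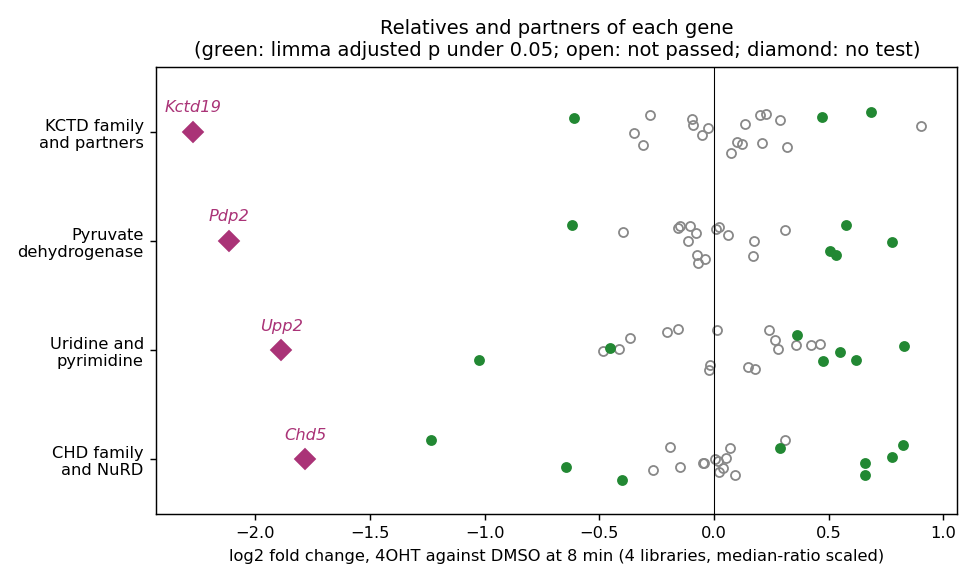
Log2 fold change of 4OHT against DMSO at 8 min in the 4 libraries of that time, median-ratio scaled, for every tested gene of the 4 lists (circles, green where the limma adjusted p passed 0.05) and for the 4 genes themselves (diamonds, no test). Each diamond lies left of all circles of its row, with Chd3 at -1.23 and Upp1 at -1.02 the nearest. The diamonds were chosen for low values at this time.

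Markers of the tissues in which these genes are best known were read beside them. The 10 neuron markers summed to 154 to 157 RPM with DMSO and 128 in both 4OHT libraries at 8 min, and over all 8 libraries to 128 to 251. None of the markers in the table was at 0 in all libraries. In the scaled 8 min libraries 1 of 10 rose (Dcx, 1.45) and 2 fell (Syt1, at -1.21, and Stmn2), near the 18.6% and 16.7% of all genes. Syt1 was at 0.25 as deposited. Of 10 hepatocyte markers 9 were in the table and 3 tested. At 8 min the sum was 10.3 to 12.1 with DMSO and 8.79 to 11.6 with 4OHT, and Alb, which encodes albumin, was at 0.445 and 0.126 (DMSO) against 0.172 and 0.173 (4OHT). Of the 3 tested, 0 rose and 1 fell when scaled, with a median of 0.27: Ttr, encoding transthyretin, fell by 2.44, while Apob, encoding an apolipoprotein, was at 0.97. Of 10 meiotic markers 7 were tested. At 8 min they summed to 841 to 1062 with DMSO and 474 to 545 with 4OHT. Tex14 made up the larger part, with 995 and 774 (DMSO) against 388 and 462 (4OHT). In the scaled 8 min libraries Tex14 fell by 1.07 (0.40 as deposited), while Meiob (1.21) and Hormad1 rose. With all 8 libraries scaled limma called 0 of these neuron, hepatocyte and meiotic markers. The part of such cells in the results was not tested.

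The nearest tested genes on the chromosome did not share the low values around Chd5 and Upp2, but did in part around Pdp2 and Kctd19. Rpl22, a ribosomal protein gene before Chd5, was at -0.05 in the scaled 8 min libraries (limma adjusted p = 0.788). Kcnab2, a potassium channel subunit gene whose span begins 549 bases after Chd5, was at -0.10 (adjusted p = 0.839). Acvr1, an activin receptor gene on the opposite strand that overlaps the first 512 bases of Upp2, rose by 0.53 (adjusted p = 0.0137), and Ccdc148 after Upp2 was at -0.24 (adjusted p = 0.292). Around Chd5 and Upp2 no neighbour fell, while 1 neighbour of each gene on chromosome 8 did, where 16.7% of all genes were called lower. Cdh16, a kidney cadherin gene whose span begins 2888 bases after Pdp2, fell by 2.4 (adjusted p = 4.8e-05) on deposited means of only 10.4 with DMSO and 4.37 with 4OHT. Car7 before Pdp2 was at 0.56 (adjusted p = 0.259). Lrrc36, which lies 95 bases after Kctd19, fell by 0.97 (adjusted p = 0.00467), and Plekhg4, which overlaps Kctd19 by 60 bases, was at -0.82 (adjusted p = 0.124). On the deposited values neither passed the test: Cdh16 was at -1.15 (adjusted p = 0.0966), and Lrrc36 turned to 0.44 (adjusted p = 0.501), with means of 19.4 and 27.0. With all 8 libraries scaled the calls of Cdh16 (adjusted p = 0.117), Lrrc36 (0.389) and Acvr1 (0.551) were lost. Relative to the median gene on the deposited scale, Cdh16 was at -2.58, Plekhg4 at -1.01, Lrrc36 at -0.997 and Car7 at 0.45. The strand counted is not given in the sources used here, so reads of overlapping or adjoining genes could not be assigned apart. Pdp2 and Kctd19 lie 784 kb from each other. Of 18 tested genes between them 5 fell and 1 rose when scaled, with a median of -0.20 and Cdh16 the lowest, against 16.7% and 18.6% called lower and higher over all genes.

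**Figure D4:**
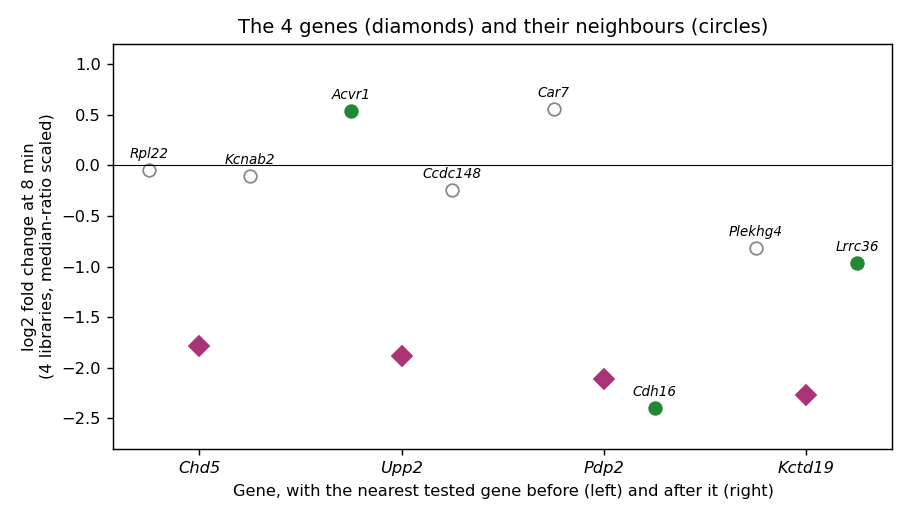
Log2 fold change at 8 min (4 libraries, median-ratio scaled) of the 4 genes (diamonds, no test) and the nearest tested gene before and after each (circles, green where the limma adjusted p passed 0.05). Cdh16 (-2.4) lies as low as Pdp2 (-2.11), while the neighbours of Chd5 and Upp2 lie between -0.24 and 0.53.

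The genes whose pattern over the 8 libraries was most like that of each gene were found by Pearson correlation of the scaled log2 values, given as a description, since libraries of the same label time resemble each other. For Chd5 they were Col9a3, a collagen chain (r = 0.998), Gli2, a hedgehog pathway factor (0.997), and the pseudogene Gm18190 (0.997). For Kctd19 they were Dsg2, a desmosomal cadherin (0.997), and the noncoding Gm30504 (0.996) and C230014O12Rik (0.996). For Pdp2 they were Slfn8 of the schlafen family (0.984), and Sqle and Cyp51, enzymes of sterol synthesis (0.981 and 0.972). For Upp2 they were Gm13135 (0.983), Frat2, a regulator of GSK3 (0.979), and Gm16233 (0.978). Among the 4 genes, Chd5 and Kctd19 were most alike (0.981) and Chd5 and Upp2 least (-0.445). The correlation included the 8 min libraries that chose the 4 genes. Low values there follow in part from that choice, so nothing is read from them. Relative to the median gene at 8 min, the genes most like Chd5 were at -1.39 (Col9a3), -0.79 (Gli2) and -2.38 (Gm18190). Those most like Upp2 were at -0.83 (Gm13135), -1.45 (Frat2) and -0.51 (Gm16233). Those most like Pdp2 were at -3.30 (Slfn8), -1.52 (Sqle) and -1.43 (Cyp51). Those most like Kctd19 were at -1.22 (Dsg2), -1.47 (Gm30504) and -2.55 (C230014O12Rik).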

How the data were processed

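The authors deposited 1 table of signal values (normalised read counts) for 38971 entries in 8 libraries. The submitters' processing notes name STAR 2.7, Bowtie2, bcl2fastq and mm10 without roles; the counter, strand and divisor are not given in the sources used here. The deposited signal times 1 number per library gave whole reads within 0.01 for 100% of values in each library. Columns without 4OHT in their name were taken as DMSO and assigned to groups only.

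Values were analysed as log2(signal + 1), so fold changes of low genes are understated. Of 37797 genes (27329 matched a RefSeq symbol), 20660 reached 10 in at least 2 libraries. A model of the 4 group means over the 8 libraries was fitted in limma 3.58.1 (R 4.3.3; two-sided, empirical Bayes with a trend, Benjamini-Hochberg over all genes, threshold 0.05), tested on simulated data. edgeR 4.0.16 (quasi-likelihood), DESeq2 1.42.0, scalings, pseudocounts, filters and omitted libraries were alternatives. The members and lists were chosen with earlier results of these data known. Named genes were the 4 genes, Ythdc1, up to 4 list genes of smallest scaled 8 min p, nearest tested neighbours and the 3 most alike; Chd3, Chd4, Uck2, Pdp1, Pdk1 and the markers were named after their values were seen. Spread rests on 2 libraries a group.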

Additional observations from a re-analysis of the deposited data

How the results depend on the processing

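Relative to the median gene, the 8 min differences kept their sign under all 20 alternatives run (19 for Pdp2, which a minimum of 100 removed). They moved by more than the spread between libraries without a filter, where more genes enter the median (Chd5 -1.47, Upp2 -1.57, Pdp2 -1.80, Kctd19 -1.97), and with a pseudocount of 5 (Pdp2 -1.96, Kctd19 -2.10). Leaving out 1 library gave -1.87 to -1.65 for Chd5, -1.97 to -1.76 for Upp2, -2.14 to -2.04 for Pdp2 and -2.33 to -2.20 for Kctd19. At 0 min no alternative called any of the 4 genes (lowest adjusted p = 0.72). On the deposited scale, not relative to the median gene, leaving out 1 library gave -0.50 to 0.46 for Chd5 and -0.64 to 0.39 for Upp2. It gave -0.49 to 0.31 for Pdp2 and -0.64 to 0.38 for Kctd19. The sign turned without 4OHT 0 min number 1 (Chd5 0.46, Upp2 0.39, Pdp2 0.31, Kctd19 0.26) and without DMSO 0 min number 2 (0.29, 0.02, 0.06 and 0.38). The cause was not tested.

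Counts moved with the scaling and with single libraries. At 8 min, genes called higher and lower (12138 and 27) were 2 and 28 with all 8 libraries median-ratio scaled, 3837 and 3450 with the 4 libraries scaled, 2 and 27 with edgeR, 267 and 544 with DESeq2, 6540 and 57 without a filter, and 7691 and 6 at a minimum of 100. With a replicate block the lower count was 65, and with block and scaling together, chosen after seeing the data, the counts were 18 and 131. Leaving out 1 library gave 240 to 14358 and 3 to 37. At 0 min (0 and 0) DESeq2 gave 89 and 40 and leaving out 1 library up to 201 and 2, both without 4OHT number 1. List genes called higher at 8 min (61) were 16 with the 4 libraries scaled, 25 without a filter, 0 with 8 libraries scaled, with block and scaling, edgeR or DESeq2, and 0 to 69 leaving out 1 library. Those called lower (0) were 7 with the 4 libraries scaled and 2 with DESeq2. At 0 min 1 list gene was called higher without 4OHT number 1. The replicate block changed no 0 min call of the 4 genes. The labels give the library numbers no shared source, and deviations of same-numbered libraries correlated at 0.465 between DMSO and 4OHT at 0 min and at 0.0993 at 8 min. The reads behind a value of the 4 genes ran from 238 to 5072, and 2 libraries a group limit the precision.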
